A study of Mus musculus with 10 samples.

Results

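The 5 sham-operated hearts of a mouse banding series were divided into 2 sets by the intensity of 2 clock genes, Arntl and Dbp, and the other genes of the unbanded left ventricle were set against this division. Hearts with high Arntl and low Dbp were those of days 3 and 14 after surgery (2 samples), and hearts with low Arntl and high Dbp were those of days 5, 7 and 28 (3 samples), which together make 5 of the 10 samples of the series. All samples came from the left ventricle of male C57BL/6J mice that were 8 weeks old at surgery. The sham hearts had the operation without banding, and the other 5 samples, 1 for each of the same days, had transverse aortic banding (TAB), which narrows the aorta and loads the left ventricle with pressure. The TAB sample titled as day 14 has another label that reads 15 days, and the day in its title was used. mRNA was measured on a 1-colour array of oligonucleotide probes, the Mouse Whole Genome OneArray, with 1 array per sample. The number of mice in a sample and the hour at which hearts were taken are not given in the sources used here. Each sham sample is a single array of a single day, so the clock gene set, the array and the handling of that day cannot be told apart.

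The circadian clock of a heart cell is a loop of transcription factors. ARNTL (also called BMAL1) pairs with CLOCK or its relative NPAS2 and switches on genes that carry an E-box, among them the Per and Cry genes, whose proteins then block the pair. Nr1d1 and Nr1d2 (REV-ERB alpha and beta) encode repressors and Rora and Rorb encode activators that act on ROR elements, one of which controls Arntl itself. The PAR bZIP factors DBP, TEF and HLF act on D-boxes and carry the rhythm to further genes, and NFIL3 represses at the same sites. In mouse tissues Arntl and Npas2 peak at the opposite phase of the day to Dbp and the Per genes. Several genes of cardiac metabolism and electrical activity are known to cycle under this clock.

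The 2 sets were chosen by the raw intensities of Arntl and Dbp, as deposited. Arntl was at 946 on day 3 and 980 on day 14, against 49 on day 5, 65 on day 7 and 50 on day 28. Dbp was at 268 on day 3 and 380 on day 14, against 2749 on day 5, 5087 on day 7 and 6326 on day 28. Neither gene overlapped between the sets. Because these samples chose the division, every comparison between the 2 sets of sham hearts is a description and has no test. Normalized intensities on the log2 scale are used below, in which a difference of 1 is 2-fold. A gene was said to follow the division when its lowest value in one set lay above its highest value in the other by at least 1, a distance called the gap, and its probe was found on every array of the brighter set.

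Over all genes the sham arrays correlated about as closely across the sets as within them. Pearson's r on the log2 scale was 0.969 to 0.976 in the 4 pairs of arrays from the same set and 0.967 to 0.975 in the 6 pairs from different sets. The median raw intensity of a sham array was between 42 and 57, and between 40.2% and 45.4% of its probes were not found. All 14 cardiomyocyte markers were found on all 5 sham arrays. Their summed normalized intensity was 355968 and 376295 in the high-Arntl hearts and between 368201 and 379796 in the low-Arntl hearts. 1 of them, Myl2, was saturated on all 5 sham arrays, so these sums cannot show a difference in it. Single sham arrays stood apart in several lists, given here by their summed normalized intensity. The summed intensity of 23 immediate-early genes, which respond within minutes to stimulation or handling, was 26065 on day 14 and between 10209 and 11506 on the other 4 sham days. The summed intensity of 6 atrial markers was 26288 on day 14 and between 11339 and 14998 on the other days. The leukocyte markers were highest on day 3, at 4070 against 2766 to 3086, as were 16 interferon-induced genes, at 7240 against 4901 to 6088. Glucocorticoid-responsive genes were highest on day 5, as described with that list. The part of these differences in the results was not tested.

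Of 16113 genes measured, 33 followed the division, or 0.205%, with 12 (0.0745%) higher and 21 (0.13%) lower in the high-Arntl hearts. Arntl and Dbp are among them by choice. With no gap required, 2995 genes (18.6%) did not overlap between the sets, 1492 of them (9.26%) higher and 1503 (9.33%) lower with Arntl. Here and in all counts below, a gene was counted as not overlapping only where its probe was also found on every array of the brighter set, so genes with separate values but dimmer probes are left out. 17 of the 33 were found on all 5 sham arrays, 5 higher and 12 lower. The 5 higher were Arntl, Spon2, Adam19, Foxs1 and Tmem171. The 12 lower were Dbp, Per2, Per3, Hlf, Tspan4, Usp2, Nr1d2, Tcap, Tef, Acer2, Pacsin2 and Il33. The other 16 had a probe that was not found on 1 or more arrays of the dimmer set. With the sham heart of day 3, 5, 7, 14 or 28 left out, the count of 33 became 206, 61, 102, 157 or 67, since a gap can only widen with fewer samples.

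**Figure D1:**
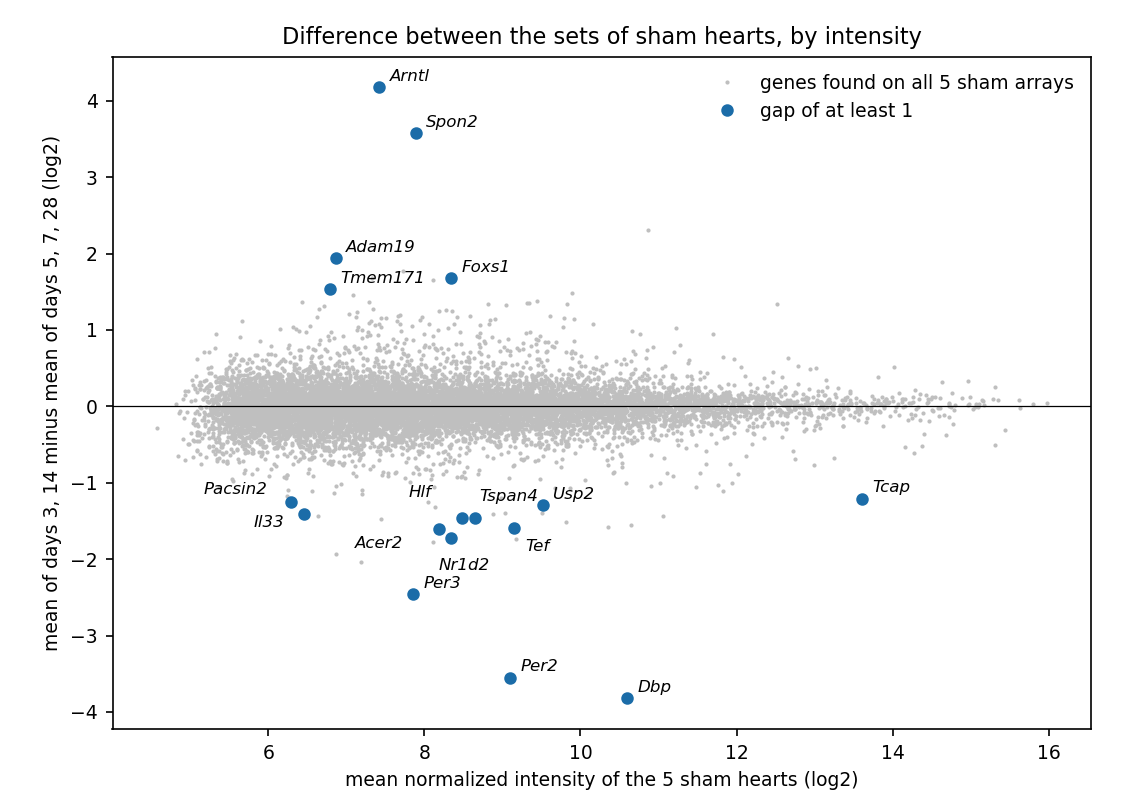
Each point is a gene found on all 5 sham arrays, with its mean normalized intensity (log2) on the horizontal axis and the mean of days 3 and 14 minus the mean of days 5, 7 and 28 (log2) on the vertical axis. The 17 genes with a gap of at least 1 are drawn in blue, and Arntl at 4.18 and Dbp at -3.82, which chose the sets, lie at the upper and lower ends with Spon2, Per2 and Per3 next to them.

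The 3 clock lists hold 20 genes, of which 19 were measured and Ciart was not. 7 of the 19 followed the division, 1 higher and 6 lower. Without Arntl and Dbp, 5 of 17 clock genes followed it (29.4%, against 0.205% of all genes), and 11 of 17 did not overlap between the sets (64.7%, against 18.6%). 3 of these 11 were higher with Arntl and 8 were lower.

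**Figure D2:**
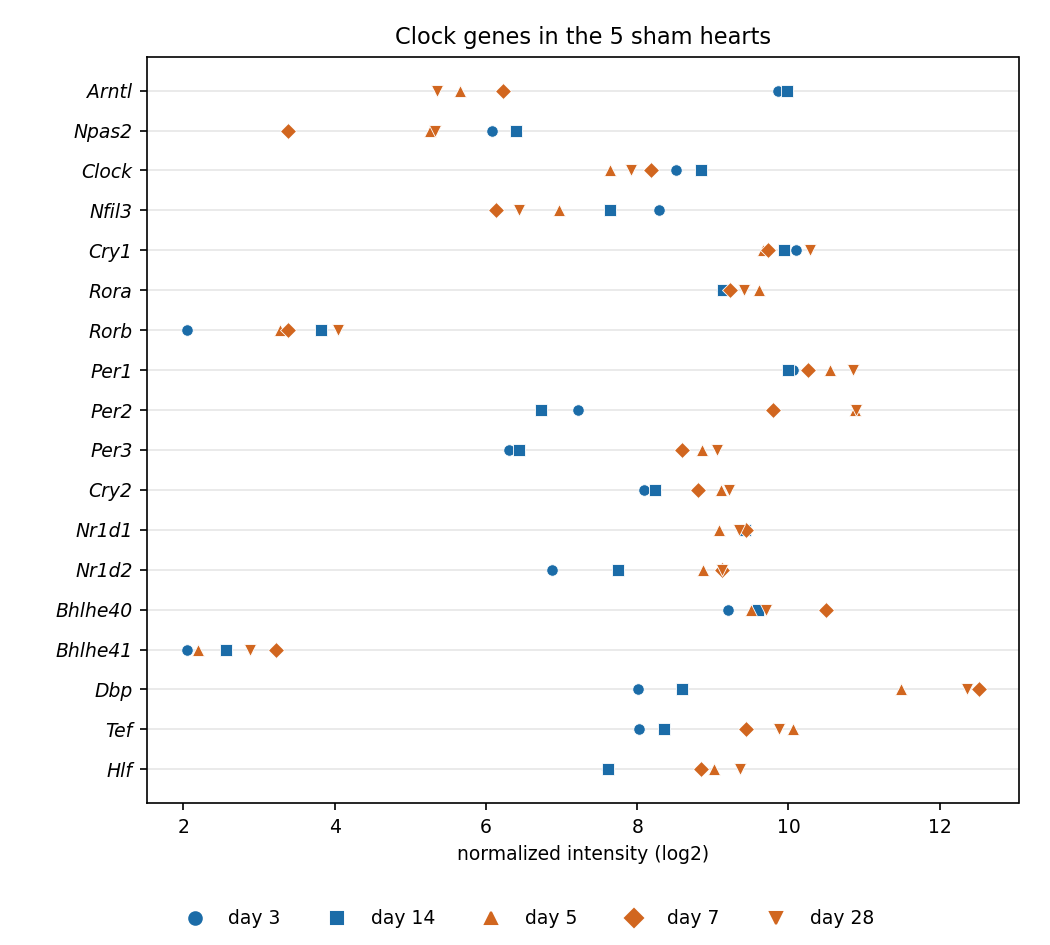
Normalized intensity (log2, horizontal axis) of the measured clock genes reported here in the 5 sham hearts, with blue symbols for days 3 and 14 and orange symbols for days 5, 7 and 28. Arntl, Npas2, Clock and Nfil3 have both blue symbols to the right of all orange ones, and Per2, Per3, Cry2, Nr1d2, Dbp, Tef and Hlf have both to the left.

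Among the activators of the loop, Arntl was at 9.87 on day 3 and 9.98 on day 14, against 5.66, 6.23 and 5.36 on days 5, 7 and 28. The gap was 3.64, so the nearest samples of the 2 sets differed 12.4-fold. Npas2 was at 6.08 and 6.40 in the high-Arntl hearts, against 5.27, 3.38 and 5.33 in the low-Arntl hearts on days 5, 7 and 28. Its direction was that of Arntl, with a gap of 0.76, but its probe was found on only 4 of the 5 sham arrays. Another Npas2 probe was found on the 2 high-Arntl arrays alone. It had a gap of 1.49, so that probe meets the rule for a follower, although it did not stand for the gene. Clock, which encodes the other partner of ARNTL, was at 8.51 and 8.85, against 7.64, 8.18 and 7.91. Clock thus had the same direction with a gap of 0.33. The Arntl promoter, a window from 250 bases before to 50 bases after a start of transcription (RefSeq, GRCm38.p6, chr7:113207261-113207560, plus strand), is shown because Arntl carries the division. Capitals mark the only match to the core of a ROR element, TAGGTCA on either strand, which begins at position 31 from the start.
Arntl: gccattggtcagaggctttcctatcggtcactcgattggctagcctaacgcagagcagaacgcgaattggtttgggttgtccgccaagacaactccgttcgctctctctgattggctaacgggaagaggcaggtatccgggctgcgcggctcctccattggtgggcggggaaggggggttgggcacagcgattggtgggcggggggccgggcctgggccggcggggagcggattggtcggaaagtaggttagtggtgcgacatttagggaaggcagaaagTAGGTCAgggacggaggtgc

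Arntl chose the sets, so its regulators at such elements are described without comparison to it. Nr1d1, the repressor usually read with Arntl, was at 9.41, 9.08, 9.44, 9.42 and 9.35 on days 3, 5, 7, 14 and 28. Its 2 sets overlapped, and all 5 values lay between 9.08 and 9.44. Nr1d2, its paralogue, was at 6.88 on day 3 and 7.74 on day 14, against 8.87, 9.12 and 9.13, a gap of 1.13. Rora was at 9.12 and 9.13, against 9.61, 9.23 and 9.41, so that it was lower with Arntl by a gap of only 0.10. The probe of Rorb was found on 1 sham array, and no level is given.

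Nfil3, the repressor at D-boxes, was at 8.28 on day 3 and 7.64 on day 14, against 6.97, 6.13 and 6.43 on days 5, 7 and 28. All 3 low-Arntl hearts were below both high-Arntl hearts, with a gap of 0.67. Its promoter window (GRCm38.p6, chr13:52980990-52981289, minus strand) is the other one among the genes examined that holds the ROR core. The match, in capitals, is on the opposite strand and begins at position -12 from the start.
Nfil3: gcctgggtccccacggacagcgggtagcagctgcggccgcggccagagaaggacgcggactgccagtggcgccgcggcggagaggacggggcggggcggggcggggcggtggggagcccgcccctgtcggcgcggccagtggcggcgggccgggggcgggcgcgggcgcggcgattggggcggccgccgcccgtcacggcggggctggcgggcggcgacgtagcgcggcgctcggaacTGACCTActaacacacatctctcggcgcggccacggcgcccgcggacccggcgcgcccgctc

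Among the genes that the ARNTL pair activates and whose products block it, Per2 was at 7.22 on day 3 and 6.72 on day 14, against 10.88, 9.79 and 10.89 on days 5, 7 and 28. Its gap of 2.58, or 5.97-fold between the nearest samples, was the next largest after Dbp among the genes lower with Arntl that were found on all sham arrays. Per3 was at 6.31 and 6.44, against 8.86, 8.59 and 9.05, a gap of 2.14. A different probe of Per3 lay between 10.02 and 10.40 in all 5 sham hearts and overlapped between the sets, so the 2 probes disagree. Per1 was at 10.06 and 9.99, against 10.55, 10.25 and 10.85. Per1 was thus lower with Arntl by a gap of 0.19. Cry2 was at 8.09 and 8.23, against 9.11, 8.81 and 9.21, a gap of 0.58. Cry1 was at 10.09 and 9.95, against 9.66, 9.73 and 10.29, and overlapped because day 28 was the highest of the 5. Bhlhe40, a repressor at E-boxes, was at 9.20 and 9.60, against 9.50, 10.50 and 9.70, and overlapped. Bhlhe41 was found on no sham array. The Per3 promoter window (GRCm38.p6, chr4:151044616-151044915, minus strand) holds 2 matches to a D-box, searched as TTATGTAA or TTACGTAA on either strand, which begin at positions -205 and -158 from the start and are in capitals.
Per3: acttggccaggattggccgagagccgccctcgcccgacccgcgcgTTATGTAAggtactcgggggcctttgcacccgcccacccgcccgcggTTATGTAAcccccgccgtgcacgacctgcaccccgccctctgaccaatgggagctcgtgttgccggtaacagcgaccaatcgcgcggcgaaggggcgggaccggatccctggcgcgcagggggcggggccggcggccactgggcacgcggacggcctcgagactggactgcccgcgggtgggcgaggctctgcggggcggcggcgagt

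The 3 PAR bZIP factors all followed the division. Dbp was at 8.01 on day 3 and 8.59 on day 14, against 11.49, 12.52 and 12.36 on days 5, 7 and 28, a gap of 2.90. Tef was at 8.03 and 8.36, against 10.06, 9.44 and 9.87, a gap of 1.08. Hlf was at 7.60 and 7.61, against 9.02, 8.85 and 9.35, a gap of 1.24. In each of these genes both high-Arntl hearts lay below all low-Arntl hearts. The windows of Tef (GRCm38.p6, chr15:81802423-81802722, plus strand) and of Tspan4, a gene described next (chr7:141476130-141476429, plus strand), are printed as examples of followers with the E-box CACGTG. The E-box is in capitals and begins at position -127 from the start in Tef and at position -51 in Tspan4. Adam19, which followed the division in the other direction, also holds the E-box, at position -130, and is not printed.
Tef: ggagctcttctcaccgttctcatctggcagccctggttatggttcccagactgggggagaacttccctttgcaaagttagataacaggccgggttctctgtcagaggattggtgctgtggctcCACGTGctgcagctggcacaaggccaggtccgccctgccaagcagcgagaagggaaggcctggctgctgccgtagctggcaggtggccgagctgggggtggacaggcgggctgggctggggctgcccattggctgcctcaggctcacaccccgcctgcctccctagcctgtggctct
Tspan4: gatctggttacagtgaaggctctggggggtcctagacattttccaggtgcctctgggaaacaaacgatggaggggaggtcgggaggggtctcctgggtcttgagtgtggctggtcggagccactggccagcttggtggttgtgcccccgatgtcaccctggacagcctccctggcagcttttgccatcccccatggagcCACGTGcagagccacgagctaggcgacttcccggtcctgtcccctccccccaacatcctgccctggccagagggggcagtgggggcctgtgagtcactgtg

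Promoter windows of 22 of 29 genes (the clock genes and the followers found on all sham arrays) were matched by symbol, 34 windows in all. Those not matched include Per2, Bhlhe40, Spon2, Foxs1, Tmem171 and Tcap. The E-box was in 7 of the 34 windows (20.6%), those of Cry1, Per1, Bhlhe41, Adam19 and Tspan4 and both of Tef, and in 7.15% of all 32851 mouse windows. The D-box was in 1 of the 34 windows, that of Per3 (2.94%), against 1.06% of all windows, and the ROR core was in 2 windows, of Arntl and Nfil3 (5.88%), against 2.61%. GAANNTTC, part of a heat shock element, was in none of the 34 windows and in 7.86% of all windows. These matches describe letters in short windows, and of the 6 genes with an E-box Adam19 was higher with Arntl, Per1, Tef and Tspan4 were lower, Cry1 overlapped and Bhlhe41 was not found.

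A list of 30 genes known to cycle with the clock in several tissues had 29 measured members. Of these 2 followed the division, both lower (6.90%, against 0.13% of all genes). Usp2, which encodes a deubiquitinase, was at 8.73 on day 3 and 8.77 on day 14, against 10.16, 9.92 and 10.04, a gap of 1.15. Tspan4, a tetraspanin membrane protein, was at 7.75 and 7.80, against 9.28, 9.002 and 9.43, a gap of 1.20. In both genes the samples of a set lay closer to each other than to the other set. In the whole list 10 of 29 genes were lower without overlap (34.5%, against 9.33% of all genes) and 2 were higher (6.90%, against 9.26%), and the median difference between the sets was -0.27, against -0.0022 over all genes. Coq10b, which encodes a protein that binds coenzyme Q, lay just under the threshold, at 8.82 and 8.50 against 9.78, 10.20 and 10.22, a gap of 0.96. Nampt, the rate-limiting enzyme of NAD salvage, was at 9.28 and 9.58 against 10.35, 9.82 and 9.85, a gap of 0.24. Wee1, a cell cycle kinase, overlapped, as did Kcnip2, the subunit of the transient outward potassium channel. Kcnip2 was at 9.68 and 9.26 in the high-Arntl hearts, against 9.83, 9.36 and 9.34.

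10 of the 17 followers found on all sham arrays are in no clock list, 4 higher and 6 lower, and Usp2 and Tspan4 are 2 of the 6. The 4 higher genes have no place in the core loop. Spon2, which encodes a secreted matrix protein of the spondin family, was at 9.87 on day 3 and 10.20 on day 14, against 5.60, 7.27 and 6.50 on days 5, 7 and 28. Its gap of 2.60 (6.07-fold) was second to that of Arntl among the genes higher with Arntl. Adam19, a membrane metalloprotease, was at 7.85 and 8.20, against 5.78, 6.33 and 6.17, a gap of 1.53. Foxs1, a forkhead factor known from pericytes and perivascular cells, was at 9.35 on both high-Arntl days, against 7.52, 7.93 and 7.56, a gap of 1.42. Tmem171, a membrane protein, was at 7.74 and 7.69, against 6.51, 6.27 and 5.75, a gap of 1.18. In each of the 4 genes the 2 high-Arntl hearts were closer to each other than to any low-Arntl heart.

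The lower genes outside the clock lists include 1 gene of the sarcomere. Tcap encodes telethonin, which caps titin at the Z-disc. It was at 12.91 on day 3 and 12.87 on day 14, against 14.02, 14.03 and 14.24, a gap of 1.11, or 2.16-fold between the nearest samples. Ttn, its partner in the Z-disc and the only one of 14 cardiomyocyte markers that did not overlap, was at 12.84 and 12.99 against 13.05, 13.19 and 13.21, a gap of 0.05. Acer2, an alkaline ceramidase of the Golgi, was at 7.05 and 7.38, against 8.87, 8.45 and 9.16, a gap of 1.06. Il33, an alarmin cytokine of the interleukin-1 family, was at 5.58 and 5.63, against 6.65, 6.89 and 7.52, a gap of 1.02. Pacsin2, which shapes membranes at caveolae and in endocytosis, was at 5.58 and 5.51, against 6.63, 6.87 and 6.89, a gap of 1.06. A second probe of Pacsin2 ran the other way, at 12.15 and 12.03 against 11.53, 11.86 and 11.72, so the direction of this gene is not settled.

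**Figure D3:**
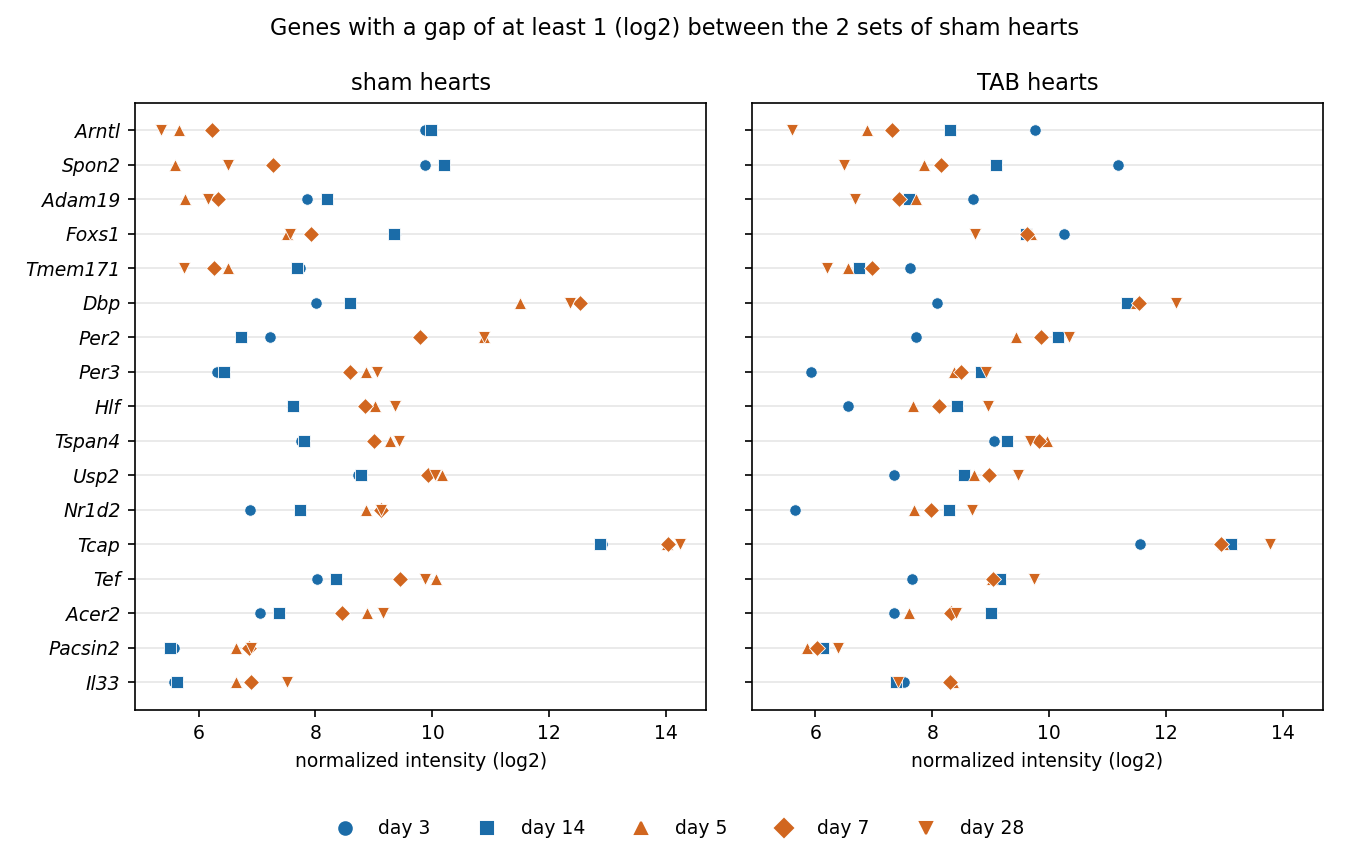
Normalized intensity (log2, horizontal axis) of the 17 genes with a gap of at least 1 that were found on all sham arrays, in sham hearts on the left and TAB hearts on the right, with blue symbols for days 3 and 14 and orange symbols for days 5, 7 and 28. In sham hearts the blue and orange symbols of a gene are at least 1 apart by the choice of the genes, whereas in TAB hearts the square of day 14 lies near or among the orange symbols for most genes.

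The genes nearest the threshold are given for those found on all 5 sham arrays. The smallest gaps inside it were 1.18 for Tmem171 among higher genes and 1.02 for Il33 among lower genes. Outside it, the largest gaps among higher genes were 0.84 for Cldn5, a tight junction protein of endothelium, 0.74 for Il16 and 0.71 for Ypel2. Those among lower genes were 0.96 for Coq10b, 0.94 for Rhobtb1 and 0.86 for Gstt2.

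The 16 followers with a probe not found on every sham array can be given only as rough bounds or not at all. The 7 higher ones were Cmah, Cbs, E030011O05Rik, Igf2bp2, Ptpn4, 2410088K16Rik and Amigo3, none of them found in a low-Arntl heart. Their bounds lay between 2.37-fold and 4.38-fold higher. Each bound sets the mean of the brighter set against the lowest signal of probes found on the dimmer arrays, or the probe's own signal where that was higher. A spot that was not found can lie above that lowest signal, so a bound is no strict limit. 7 of the 9 lower ones were not found in either high-Arntl heart, namely Zfp352, Tbrg3, Cenpl, Afmid, Pold1, 4930452B06Rik and Gsx2. Their bounds ran from 2.18-fold to 45.4-fold lower, and each was the plain difference of the set means, taken from spots not found. Zfp352, a zinc finger gene chosen here after its values were seen, had the bound of 45.4. It was at 9.01, 8.88 and 9.24 on days 5, 7 and 28, and at 2.77 and 4.30, where its probe was not found, on days 3 and 14. In TAB hearts its values on days 3, 5, 7, 14 and 28 were 5.42, 5.29, 8.88, 9.01 and 9.24, so that the low days were not the same. Olfr697 and Stc1 were each found on 1 of the 2 dimmer arrays. Other probes of Cmah and Cenpl overlapped between the sets, and another probe of Cbs was also found in the high-Arntl hearts alone.

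Heat shock genes, several of which follow body temperature and feeding, differed in both directions, mostly by very small gaps. Of 20 measured members of this list, none followed the division, against 0.205% of all genes. At that share a list of this size seldom holds any, here and in the lists below. Without overlap 5 were higher (25.0%, against 9.26% of all genes) and 3 were lower (15.0%, against 9.33%), and the median difference was 0.11. Among the genes without overlap, the gap was 0.29 for Chordc1, 0.21 for Cirbp and 0.07 or less for the rest. Hsp90aa1, a cytosolic chaperone, was at 12.02 and 12.71 with high Arntl, against 11.70, 11.84 and 11.99, a gap of 0.03. Cirbp, an RNA-binding protein induced by mild cold, was at 9.47 and 10.36, against 10.90, 10.56 and 10.88, a gap of 0.21.

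Glucocorticoids are hormones with a daily rhythm of their own. Of 23 genes that respond to them and were measured, none followed the division, against 0.205% of all genes. Without overlap 10 were lower (43.5%, against 9.33% of all genes) and 1 was higher (4.35%), and the median difference was -0.51. The gaps of the 10 were small in several genes, at 0.0040 for Zbtb16, 0.03 for Mt1, 0.04 for Mt2 and 0.04 for Tsc22d3. 5 of these 10, Per1, Tsc22d3, Klf9, Klf15 and Pik3r1, also stand in the clock lists or the list of clock output genes above. Klf9, a Kruppel-like factor, was at 12.40 and 12.27, against 13.48, 12.78 and 12.82. Cebpb, a bZIP factor of the acute response, was at 8.97 and 8.83, against 10.92, 9.59 and 10.76, a gap of 0.61 and the largest of this list. Klf15, a regulator of cardiac amino acid and lipid use, was at 8.73 and 9.09, against 10.41, 9.37 and 9.81. In all 3 genes day 5 was the highest sham heart. Tsc22d3, which encodes the mediator GILZ, was at 10.56 and 10.61 against 11.90, 10.65 and 11.82, so that day 7 lay next to the high-Arntl hearts. The summed intensity of the list was also highest on day 5, with 48788 and 50656 in the high-Arntl hearts, against 97577, 52726 and 70054 on days 5, 7 and 28. Fkbp5, a widely used reporter of this hormone, overlapped, at 7.86 and 8.50 against 9.57, 6.90 and 8.90.

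The metabolic lists held no follower, against a share of 0.205% over all genes. Of 24 genes of fasting and fatty acid use, 1 was higher without overlap (4.17%, against 9.26% of all genes) and 2 were lower (8.33%, against 9.33%), and Pdk4, the kinase that shuts off pyruvate oxidation, overlapped. Of 22 genes of insulin action, glucose and glycogen, 3 were higher (13.6%) and 5 were lower (22.7%), against the same shares of all genes. Among the lower ones Pfkfb1, an enzyme that sets the level of a glycolytic activator, was at 7.55 and 7.03, against 8.32, 8.51 and 8.80, a gap of 0.77. Of 18 genes of lipid synthesis, 4 were higher (22.2%), among them Scd1, Scd2 and Srebf1, and Thrsp was lower (5.56%), against 9.26% and 9.33% of all genes. The median differences of these lists were 0.0080, -0.11 and 0.21.

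Of 19 ion channel genes of the cardiomyocyte, none followed the division, against 0.205% of all genes. 4 were counted as lower without overlap (21.1%, against 9.33% of all genes) and 2 were higher (10.5%, near the 9.26% of all genes). These counts leave out Kcna5, Hcn4 and Kcne1, whose values were separate but whose probes were not found on every brighter array. Kcnh2, which carries the rapid delayed rectifier current, was at 7.18 and 7.63 with high Arntl, against 8.16, 8.19 and 8.51, a gap of 0.53. Kcnd2, a pore subunit of the transient outward current, was at 6.68 and 7.24, against 7.54, 8.00 and 7.90, a gap of 0.30. Kcnq1 and Cacna1c were lower by gaps of 0.03 and 0.11, and Kcnj2 and Cacna1g were higher by gaps of 0.03 and 0.01.

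The immediate-early genes, whose sum was highest on day 14, held no follower, against 0.205% of all genes. 5 of 23 were counted as higher without overlap (21.7%, against 9.26% of all genes), namely Fos, Egr1, Ier2, Dusp1 and Cyr61, and 1 was lower (4.35%, against 9.33%). The values of Egr2 and Fosb were also separate, but their probes were not found on both high-Arntl arrays. Fos was at 10.18 on day 14 but at 8.03 on day 3, against 7.01, 7.89 and 7.44, and Egr1 was at 13.36 on day 14 but at 11.13 on day 3, against 9.34, 11.01 and 9.46. In both genes day 3 lay within 0.14 of day 7. Ier3, the lower one, was at 7.37 and 7.60, against 8.56, 8.45 and 8.62, a gap of 0.85.

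The markers of other cell types held no follower, against 0.205% of all genes. Of 12 fibroblast and matrix markers 3 were higher without overlap (25.0%), of 13 endothelial and mural markers 3 were higher (23.1%) and 1 was lower (7.69%), and of 14 leukocyte markers 2 were higher (14.3%), against 9.26% of all genes higher and 9.33% lower. The gaps of the fibroblast genes were 0.67 for Col3a1, found on 4 sham arrays, 0.27 for Col1a2 and 0.15 for Tcf21. Those of the endothelial genes were 0.57 for Kdr, the main receptor for VEGF, 0.14 for Emcn and 0.12 for Tie1. The summed fibroblast markers were at 21087 and 24616 in the high-Arntl hearts, below and above the range of 21731 to 24467 of the low-Arntl hearts, and the summed endothelial markers were at 16812 and 18410, against 16893 to 18901. Of 6 atrial markers 1 was lower (16.7%), of 7 adipocyte markers 2 were higher (28.6%), and of 15 cell cycle genes 1 was lower (6.67%), so that each of these shares rests on 1 or 2 genes. None of 16 interferon-induced genes, 3 erythroid markers or 4 skeletal muscle markers was counted as not overlapping, although the values of Ifih1, whose probe was not found on every brighter array, were separate. In bulk tissue, fewer cells of a type and less RNA per cell cannot be told apart.

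**Figure D4:**
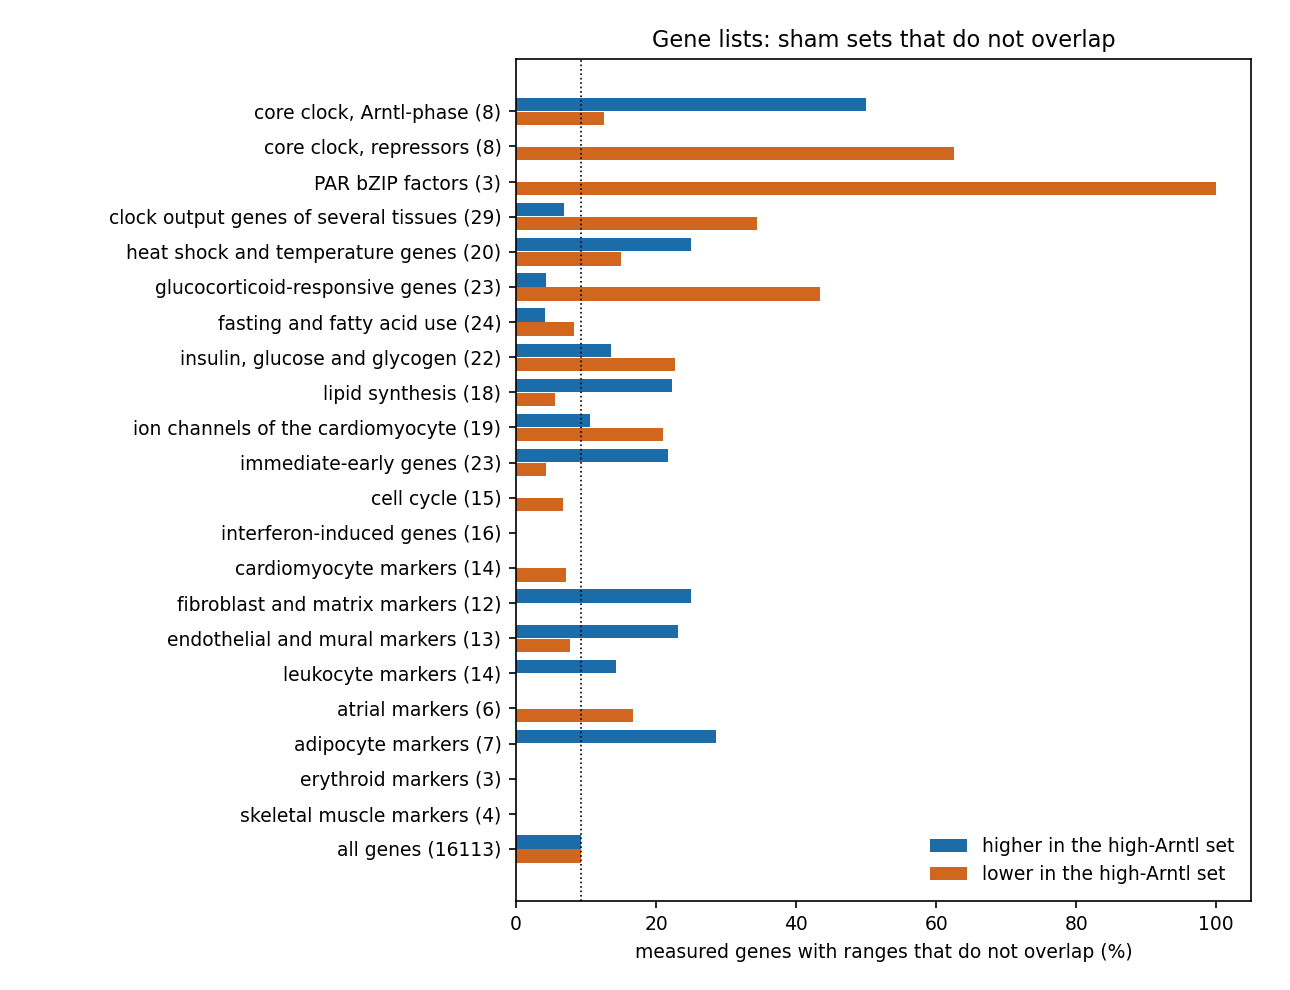
Share of the measured genes of each list (number in brackets) whose values did not overlap between the 2 sets of sham hearts and whose probe was found on every array of the brighter set, in percent, with blue bars for genes higher and orange bars for genes lower in the high-Arntl hearts. The dotted line is the share over all genes in the higher direction (9.26%), and the longest bars belong to the clock lists, which hold Arntl and Dbp themselves.

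The 5 TAB hearts took no part in choosing the sets, and the same days were compared in them. The log2 difference Arntl minus Dbp, which orders samples and does not compare the levels of the 2 genes, was 1.85 and 1.39 in the sham hearts of days 3 and 14 and -5.84, -6.29 and -7.00 in those of days 5, 7 and 28. In TAB hearts it was 1.68 for day 3, -3.03 for day 14, and -4.61, -4.22 and -6.57 on days 5, 7 and 28. TAB day 3 was therefore as high as the sham hearts of days 3 and 14, whereas TAB day 14 lay between them and the low-Arntl hearts, and nearer to the latter.

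Arntl in TAB hearts was at 9.76 on day 3 and 8.30 on day 14, against 6.88, 7.31 and 5.60 on days 5, 7 and 28. The difference between days 3 and 14 and days 5, 7 and 28 was 2.43 (SE 0.66, n = 2 and 3, unadjusted p = 0.0121, adjusted p = 0.9999 by limma over all genes). Spon2 was at 11.18 and 9.09, against 7.85, 8.15 and 6.49, a difference of 2.64 (SE 0.78, limma unadjusted p = 0.0168, adjusted p = 0.9999). Both genes were higher on days 3 and 14 without overlap, but the adjusted values did not pass. Npas2, found on only 2 TAB arrays, was at 6.41 and 5.86, against 4.16, 4.38 and 3.74. Its difference was 2.04 (SE 0.29, limma unadjusted p = 0.00064, adjusted p = 0.9999). Dbp was at 8.08 on day 3 but at 11.33 on day 14, against 11.49, 11.53 and 12.17, a difference of -2.03 (SE 0.94). Per2 was at 7.72 on day 3 but at 10.15 on day 14, against 9.43, 9.85 and 10.33, a difference of -0.94 (SE 0.74). In Dbp and Per2 day 3 alone was low.

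Across all 16113 genes limma called none in this contrast at an adjusted p under 0.05 (0%), and 487 genes (3.02%) had an unadjusted p under 0.05. Of the 17 followers found on all sham arrays, 4 had an unadjusted p under 0.05, namely Arntl, Spon2, Tspan4 and Usp2, and none passed after adjustment. Usp2 was at 7.35 and 8.54, against 8.71, 8.96 and 9.47, a difference of -1.10 (SE 0.43). Tspan4 was at 9.06 and 9.28, against 9.96, 9.82 and 9.67, a difference of -0.65 (SE 0.20). Both were lower on days 3 and 14 without overlap in TAB hearts as well. Without TAB day 14, which leaves TAB day 3 as a lone sample assumed to vary like the other days, 4 genes were called.

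15 of the 17 genes had the same sign in TAB as in sham hearts, 5 of 5 of the higher and 10 of 12 of the lower genes, and Acer2 and Pacsin2 did not. For comparison, 51.4% of all genes had a positive difference in TAB hearts. The 2 TAB days differed. Against the mean of TAB days 5, 7 and 28, the median difference of the 5 higher genes was 1.41 on day 3 and 0.33 on day 14, and that of the 12 lower genes was -1.67 on day 3 and -0.04 on day 14. All 17 genes had the sign of the sham division on TAB day 3, and 11 of 17 on TAB day 14, while 52.8% and 52.4% of all genes were positive on these days. The 17 include Pacsin2, whose difference on TAB day 3 was -0.0088 and whose probes disagree in sham hearts. Of the 16 followers not found on all sham arrays, 2 of 7 higher and 4 of 9 lower genes had the same sign in TAB hearts.

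**Figure D5:**
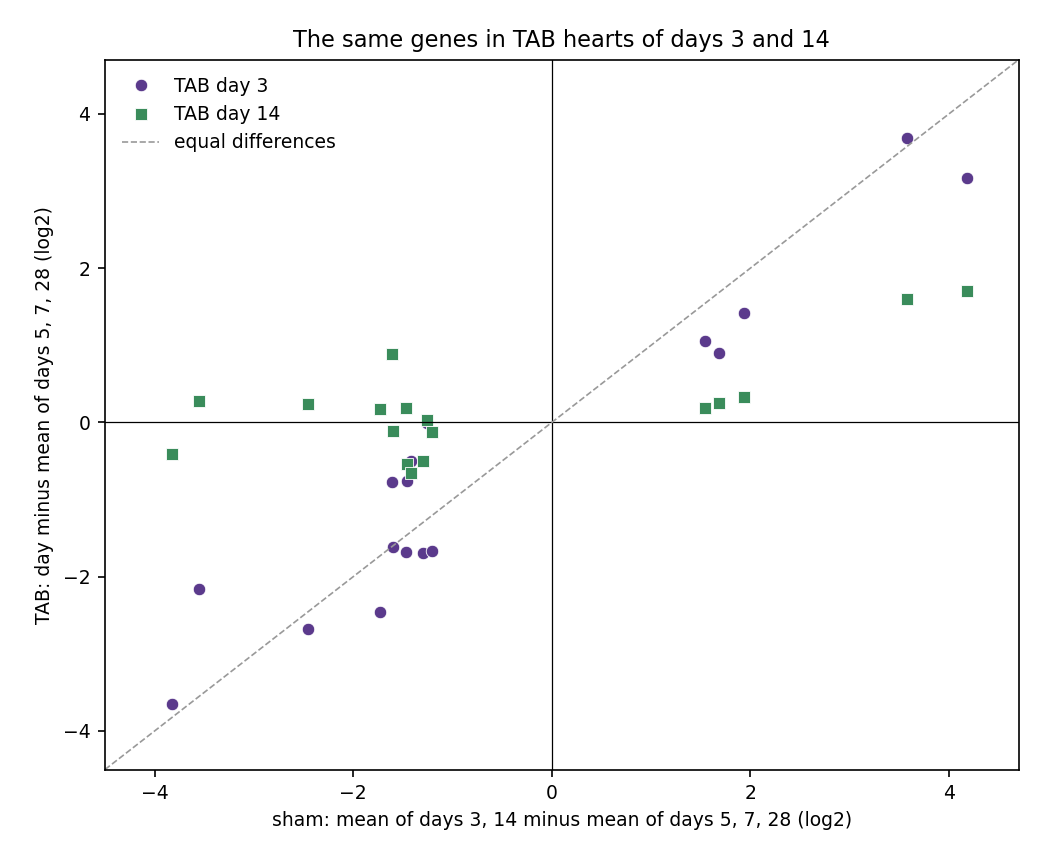
For the 17 genes with a gap of at least 1 found on all sham arrays, the difference between the sham sets (log2, horizontal axis) is drawn against the difference of TAB day 3 (purple circles) or TAB day 14 (green squares) from the mean of TAB days 5, 7 and 28 (log2, vertical axis), with a dashed line where both are equal. The circles of day 3 have a median of 1.41 for the higher and -1.67 for the lower genes. Some lie near the line and others well off it, such as Per2 at -2.15 against -3.55 in sham hearts. The squares of day 14 lie on both sides of 0 for the lower genes, with a median of -0.04.

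Outside the core loop, 3 of the 4 higher genes kept the order of the days only in part in TAB hearts. Adam19 was at 8.69 on day 3 and 7.61 on day 14, against 7.71, 7.43 and 6.68, so day 14 lay among the other days. Tmem171 was at 7.63 and 6.75, against 6.55, 6.96 and 6.20. Foxs1 was at 10.25 and 9.60, against 9.69, 9.63 and 8.72. Day 3 was the highest TAB heart in all 3 genes. Tcap was at 11.56 on day 3, the lowest TAB heart, but at 13.10 on day 14, against 12.96, 12.93 and 13.77. Il33 was at 7.52 and 7.37, against 8.35, 8.30 and 7.42, so that day 28 lay between days 3 and 14. Acer2 was at 7.34 and 8.997, against 7.60, 8.33 and 8.41, with day 14 the highest of the 5. These are differences between days after banding as well as between arrays, which cannot be told apart here.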

How the data were processed

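mRNA of 10 left ventricle samples (sham or TAB, days 3, 5, 7, 14 and 28, 1 for each operation and day) was labelled with Cy5, hybridized to the Mouse Whole Genome OneArray and read with GenePix 4.1. The authors deposited the raw intensity of 26423 probes per array with the background already subtracted, a detection p-value and a flag score. The background method and the meaning of the flag are not given in the sources used here, and the negative flag was read as a spot not found. The deposited p-value was not used. Precision is limited by the number of arrays.

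Arrays were brought to the same median, the 19976 probes with at least 1 on every array were kept, quantiles were equalized over the 10 arrays using the median at each rank, and log2 was taken. These steps were built after the paper's methods, whose averaging of repeated data could not be followed with 1 column per sample and whose wording can mean medians of ranks within each operation, which was an alternative. Where a gene had several probes, the one whose absolute log2 ratios of TAB to sham summed highest over the days stood for it, which left 16113 genes; 13.7% of probes had no symbol and were left out. The naming rule took all clock genes, up to 12 followers with the largest gap in each direction among those found on all 5 sham arrays, and examples of 21 gene lists. Some genes nearest the threshold and the followers not found on all sham arrays are also named. The sets, lists and rules were chosen with earlier results of these data known. The sham sets were not tested. TAB days were tested with limma 3.58.1 (lmFit and eBayes, Benjamini-Hochberg) in R 4.3.3, after a test on simulated data; other steps used numpy 2.4.6, scipy 1.17.1, pandas 2.3.3 and matplotlib 3.10.9 in Python 3.11.15. Alternatives were other normalizations, filters, probes, gaps and eBayes settings, and each sample left out. Promoter windows came from RefSeq tables of GRCm38.p6, matched by symbol. The array names no genome build, so no other coordinates are given. Some genes counted in the lists are not reported here by name.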

Additional observations from a re-analysis of the deposited data

Results flagged for a closer look

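Each clock gene and follower found on all sham arrays was examined for a sample far from the other 4 of its operation, by Dixon's ratio of the gap to the range with a critical value of 0.71 for 5 samples. 58 groups of 5 samples were examined and 6 were flagged, where chance flags about 1 in 20, a rate that does not hold for the sham groups of genes chosen for their gap. 5 of the 6 were the TAB heart of day 3. Its normalized intensity (log2) was high for Clock at 8.78, where the next highest TAB heart was at 8.32, and for Nfil3 at 8.17, where the next highest was at 7.02. It was low for Dbp at 8.08, where the next lowest was at 11.33, and for Per3 at 5.92, where the next lowest was at 8.36. The value of 0.78 for Rorb was also flagged as low, but its probe was found on no TAB array, so it is no level. The 1 flagged sham heart was that of day 5 for Nr1d1, at 9.08, where the next lowest was at 9.35.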

How the results depend on the processing

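The number of genes that followed the division in sham hearts, 33, depended on the threshold and on dim probes. With no requirement that the probe was found, the number was 49, with 16 higher and 33 lower. It was 12 with 50 added before the log2 step, 18 with the lowest tertile of genes by intensity left out, 17 when the probe had to be found on all sham arrays, 149 and 11 with a gap of 0.5 and 1.5, 2995 with no gap, and 61 to 206 with 1 sham sample left out. The division into 12 higher and 21 lower genes became 17 and 19 when only medians were scaled, 19 and 20 when intensities below 1 were raised to 1, 13 and 17 with quantile normalization to the mean of each rank, and 73 and 76 with a gap of 0.5. Higher genes outnumbered lower ones with a gap of 1.5 (7 and 4) and without the sham heart of day 28 (39 and 28). Quantile normalization within each operation gave 35 genes, 13 higher and 22 lower. The clock genes among them, 7, were 4 with a gap of 1.5 and 13 with no gap. The 21 genes with the same sign in TAB hearts became 12 with 50 added, 100 and 8 with a gap of 0.5 and 1.5, 1607 with no gap, and 34 to 114 with 1 sham sample left out. The 0 genes called by limma in TAB hearts were 3 with probes below 1 set to 1, 487 at an unadjusted p under 0.05, and 0 to 4 with 1 TAB sample left out. The 4 appeared without day 14 (Atp6v0b, Gdf7, Ppp1r15a and Sept7, named after their values were seen), where TAB day 3 is a lone sample assumed to vary like the other days. The gaps of the 17 genes found on all sham arrays stayed at 1 or more in 127 of 136 values over 8 normalizations, filters and probe rules and in 85 of 85 with a sham sample left out, which can only widen a gap. The brightest probe turned the gap of Pacsin2 to -0.62 and that of Per3 to -0.29, the mean of all probes gave Pacsin2 0.22, and 50 added gave 0.86 for Tmem171, 0.97 for Nr1d2, 0.98 for Tef, 0.88 for Acer2, 0.61 for Pacsin2 and 0.59 for Il33. Except where fewer genes or samples entered, the cause was not tested. Spots near background limit what dim probes can show. No paired analysis was possible because the sets compared are different days of 1 operation, and no label pairs a sample of one set with a sample of the other.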
